A study of Mus musculus with 2 samples.

Results

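Regulatory T cells (Treg cells) that settle in the gut and other tissues include a population that carries the transcription factor GATA3 and ST2, the receptor for the alarm cytokine IL-33. The 7 genes described here belong to that population: Gata3, Il1rl1 (which encodes ST2), Klrg1, Areg, Dgat2, Pparg and Nfil3. They were chosen by gene name from a table of 55246 loci, and all 7 were found, each in a single row. The table holds gene-level RNA sequencing reads of colon lamina propria Treg cells from female mice; the lamina propria is the connective layer that carries the gut epithelium. There are 2 groups, wild type (WT) and Exon2KO, whose Foxp3 gene lacks exon 2, and each group has 1 library. Age, the alleles at other loci, the sorting scheme and the number of mice behind a library are not given in the labels. The comparison asks how colonic Treg cells with a Foxp3 protein that lacks the exon 2 segment differ from WT cells in their transcripts. With 1 library per genotype there was no replicate check, and the spread between samples of a genotype could not be measured, so the intervals below cover counting error in these libraries only.

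GATA3 is a zinc finger factor best known from type 2 helper T cells, and in Treg cells of the gut and skin it is found together with ST2. IL-33 is released by damaged or stressed barrier cells, binds ST2 paired with the accessory chain encoded by Il1rap, and signals through MyD88. Treg cells of this kind are known for accumulating in tissue, for the inhibitory receptor KLRG1 and for making amphiregulin, a growth factor that takes part in epithelial and muscle repair.

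The promoters of 2 of these genes are shown because they hold the recognisable factor motifs found among the 7 genes. Start-site windows from RefSeq (GRCm38.p6) were matched by symbol for 5 of the 7 genes, with 8 windows in all, and none was matched for Klrg1 and Dgat2. The 250 bases before each start site were searched on both strands for the GATA motif (GATA with A or T before it and A or G after it), the forkhead motif TGTTTAC, the AP-1 motif TGANTCA, the NFIL3 motif TTANGTAA and the cyclic AMP response element TGACGTCA. Sequences run 5′ to 3′ on the plus strand and stop before the exon annotated in GENCODE M21, with motif matches in capitals.
Il1rl1 distal promoter, chr1:40429320-40429569: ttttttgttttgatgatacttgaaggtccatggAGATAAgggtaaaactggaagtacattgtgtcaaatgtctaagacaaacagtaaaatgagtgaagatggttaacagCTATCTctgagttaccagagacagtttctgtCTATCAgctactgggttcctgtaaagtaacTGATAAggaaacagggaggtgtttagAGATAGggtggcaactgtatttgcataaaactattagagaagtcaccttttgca
Il1rl1 proximal promoter, chr1:40439379-40439626: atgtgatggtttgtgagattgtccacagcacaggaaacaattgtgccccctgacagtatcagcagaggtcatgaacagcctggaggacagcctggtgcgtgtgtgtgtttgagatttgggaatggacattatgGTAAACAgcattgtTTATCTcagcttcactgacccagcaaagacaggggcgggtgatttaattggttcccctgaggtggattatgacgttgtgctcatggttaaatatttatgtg
Areg promoter, chr5:91139349-91139598: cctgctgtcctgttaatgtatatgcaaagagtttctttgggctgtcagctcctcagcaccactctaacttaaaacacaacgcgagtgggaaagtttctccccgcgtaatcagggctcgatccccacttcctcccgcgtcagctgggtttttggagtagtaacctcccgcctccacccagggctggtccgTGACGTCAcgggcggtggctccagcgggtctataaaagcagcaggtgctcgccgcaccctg
The distal Il1rl1 window held 5 GATA matches, at 217, 141, 110, 80 and 54 bases before the start site. At least 1 such match was present in 26.5% of all 32851 windows and in 2 of the 8 windows of these genes, both of Il1rl1. Windows with 5 or more numbered 14 of the 32851 (0.0426%), a count looked up after the 5 matches had been seen. The proximal Il1rl1 window had 1 GATA match, 103 bases before the start, and a forkhead match 14 bases upstream of it, at 117 bases, a motif present in 3.17% of windows. The Areg window had the cyclic AMP response element 61 bases before the start, which 1.55% of windows held. The AP-1 motif (6.75% of windows) and the NFIL3 motif (2.06%) were in none of the 8 windows of these genes. A match describes letters and does not show binding.

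Levels were compared per length, as RPKM, the reads of a gene divided by its length and by the scaled library size. In the WT library Areg was the highest of the 7 genes at 1098 RPKM, followed by Klrg1 at 292, Nfil3 at 266, Gata3 at 85.6, Dgat2 at 73.7, Il1rl1 at 52.3 and Pparg at 1.27. In the Exon2KO library the order became Areg at 638 RPKM, Nfil3 at 417, Klrg1 at 34.4, Gata3 at 15.0, Il1rl1 at 6.13, Dgat2 at 2.52 and Pparg at 0.530. The 95% Poisson intervals of neighbours in either order did not overlap; for example, Klrg1 (285 to 299) lay above Nfil3 (260 to 272) in WT. Among 12853 protein-coding genes with at least 10 reads, Areg stood at rank 38 in WT and 66 in Exon2KO, while Dgat2 stood at rank 747 and 7025. Areg and Nfil3 together thus supplied most reads of the set in Exon2KO: Areg gave 41.5% of the 50507 reads of the 7 genes in WT and 43.5% of the 28461 in Exon2KO, and Nfil3 gave 16.7% and 47.5%.

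**Figure D1:**
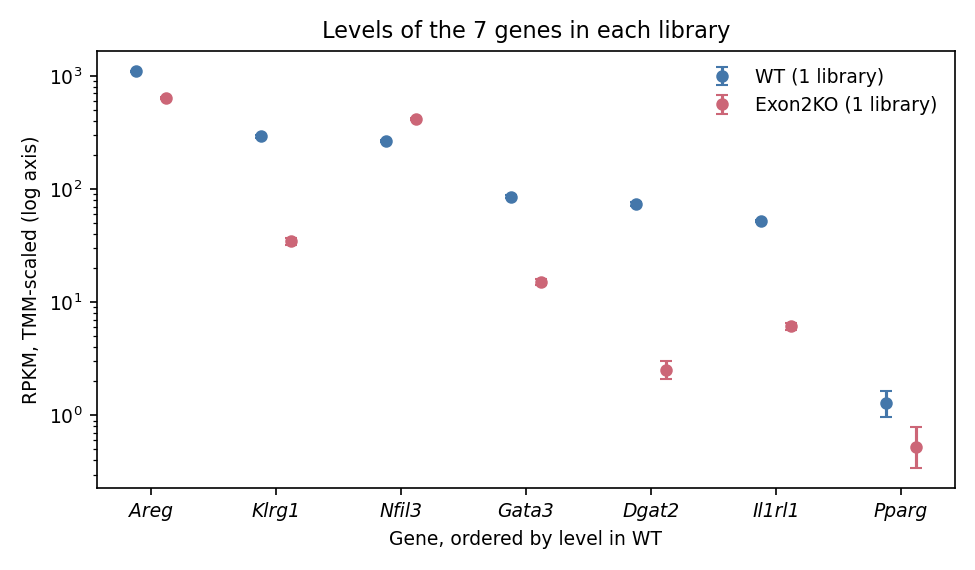
Level of each of the 7 genes in RPKM (log axis) in the WT and Exon2KO libraries, 1 point per library with its 95% Poisson interval for counting error. Areg was highest in both libraries, at 1098 and 638 RPKM, and Nfil3 was the single gene of the 7 with the higher level in Exon2KO.

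Gata3, Il1rl1, Klrg1, Dgat2 and Pparg were lower in the Exon2KO library by at least 2-fold, Areg was lower by 1.72-fold and Nfil3 was higher by 1.57-fold. Ratios are given as log2 of Exon2KO over WT after TMM scaling with a prior count of 2, so a value of -1 is a 2-fold lower level. All 7 genes had at least 10 reads over both libraries. Of them, 5 were past 2-fold lower and 0 past 2-fold higher, against 8.14% and 9.38% of the 17363 genes with at least 10 reads. Among the 6771 genes with at least 500 reads, a depth that 6 of the 7 reached, those shares were 3.23% and 1.96%. The median ratio of the 7 genes was -2.51, against 0.0035 over all genes with at least 10 reads. A ratio under 0 was found for 6 of the 7 and for 49.7% of all those genes. Bulk reads cannot tell fewer cells of this type from less RNA per cell.

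**Figure D2:**
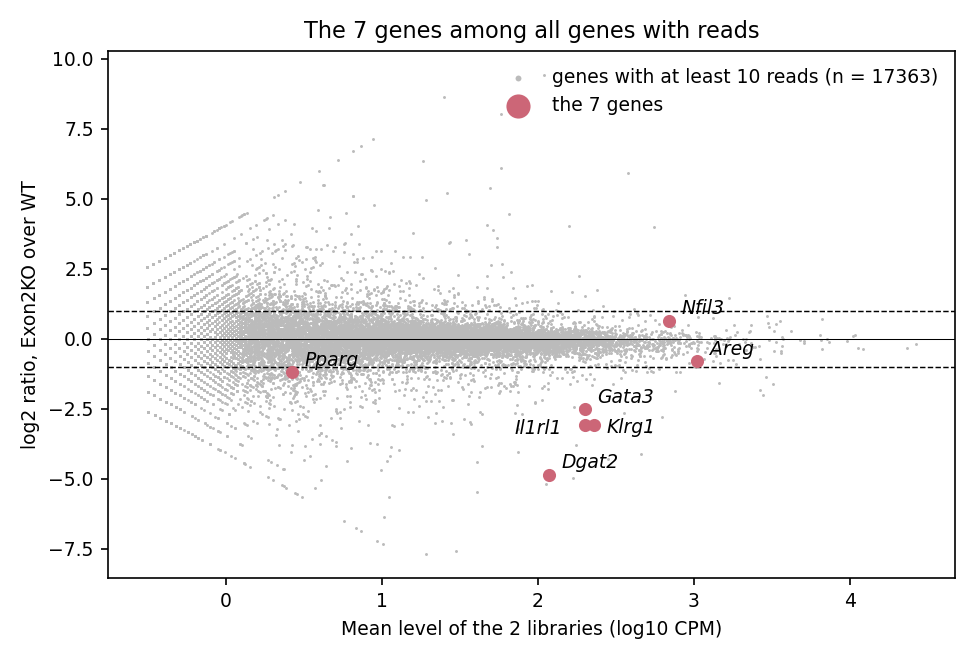
Log2 ratio of Exon2KO over WT against mean level (log10 CPM of the 2 libraries) for 17363 genes with at least 10 reads (grey) and the 7 genes (red); dashed lines mark 2-fold. Dgat2, Il1rl1, Klrg1 and Gata3 lie below the band of genes of like level, Pparg sits among genes with few reads, and Areg and Nfil3 lie inside the 2-fold lines.

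The transcription factor at the head of the group, Gata3 (ENSMUSG00000015619, chromosome 2, 9857078 to 9890034, minus strand, GRCm38), had 5347 reads in WT and 954 in Exon2KO. The WT library was 5.70-fold higher, a log2 ratio of -2.51 (95% Clopper-Pearson interval -2.61 to -2.41). That was the 32nd lowest ratio of the 6771 genes with at least 500 reads. The annotated loci that overlap Gata3 held few reads: 9230102O04Rik on the same strand had 24 and 1, and the antisense loci Gm13256 and 4930412O13Rik had 5 and 1 in WT and 0 in Exon2KO. The use of strand in counting is not given in the sources used here, so reads in shared sequence are uncertain, but these counts are small beside those of Gata3.

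Il1rl1 (ENSMUSG00000026069, chromosome 1, 40429570 to 40465415, plus strand), the IL-33 receptor gene whose distal window is printed above, had 5655 reads in WT and 676 in Exon2KO. Its log2 ratio was -3.09 (-3.21 to -2.98), an 8.50-fold difference. Il1rl1 gives a membrane and a soluble form and has both promoters shown above; the gene-level count does not separate them. Klrg1 (ENSMUSG00000030114, chromosome 6, 122270596 to 122282882, minus strand), which encodes an inhibitory lectin-like receptor that binds cadherins, had 6483 and 778 reads. Its log2 ratio of -3.08 (-3.19 to -2.98) could not be separated from that of Il1rl1: the difference of the 2 log2 ratios was -0.0056, with a 95% Woolf interval of -0.16 to 0.15. Both were lower than Gata3: the difference of log2 ratios was -0.57 for Klrg1 (-0.72 to -0.43) and -0.58 for Il1rl1 (-0.73 to -0.43). These differences between genes do not depend on library scaling.

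Dgat2 (ENSMUSG00000030747, chromosome 7, 99153658 to 99182719, minus strand), which encodes an enzyme for the last step of triglyceride synthesis, had the lowest ratio of the group. Its reads numbered 3565 in WT and 124 in Exon2KO, a 28.8-fold difference and a log2 ratio of -4.85 (-5.14 to -4.61). Only 5 of the 6771 genes with at least 500 reads had a lower one. The Dgat2 ratio differed from that of Il1rl1, the next in order, by -1.78 (interval -2.06 to -1.50). Pparg (ENSMUSG00000000440, chromosome 6, 115360951 to 115490399, plus strand), the fatty acid-sensing nuclear receptor that is a feature of Treg cells in fat, had just 59 reads in WT and 25 in Exon2KO. Its log2 ratio of -1.20 had an interval of -2.0 to -0.57, which crosses the 2-fold line. Pparg and Areg, neighbours in the order of ratios, were not separable (difference -0.48, -1.16 to 0.19).

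Areg (ENSMUSG00000029378, chromosome 5, 91139599 to 91148432, plus strand), the amphiregulin gene, had 20939 reads in WT and 12392 in Exon2KO. Its log2 ratio was -0.78 (-0.82 to -0.75). Nfil3 (ENSMUSG00000056749, chromosome 13, 52967209 to 52981073, minus strand), a basic leucine zipper factor tied to the clock and to innate lymphoid cell development, had 8459 reads in WT and 13512 in Exon2KO. Its log2 ratio was 0.65 (0.61 to 0.69), and Areg minus Nfil3 came to -1.43 (-1.48 to -1.38).

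Ratios per T cell read and per Foxp3 read differ from ratios per library. The 14 T cell identity genes summed to 142850 reads in WT and 114269 in Exon2KO, and Foxp3 had 6991 and 20946 reads. Per 1000 reads of the T cell genes, Gata3 went from 37.4 to 8.35, Il1rl1 from 39.6 to 5.92, Klrg1 from 45.4 to 6.81, Dgat2 from 24.96 to 1.09, Areg from 147 to 108 and Pparg from 0.413 to 0.219, while Nfil3 went from 59.2 to 118. Per 1000 Foxp3 reads, Gata3 had 765 reads in WT and 45.5 in Exon2KO, Areg had 2995 and 592, and Nfil3 had 1210 and 645. A change of denominator shifts every gene by the same amount, so any gene with a ratio between 0 and that of Foxp3 (1.56) has the opposite sign per Foxp3 read. Among the 7 genes this holds for Nfil3, at 0.65 per library, 1.00 per T cell read and -0.91 per Foxp3 read. A whole-gene Foxp3 count does not check the deletion of 1 exon.

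**Figure D3:**
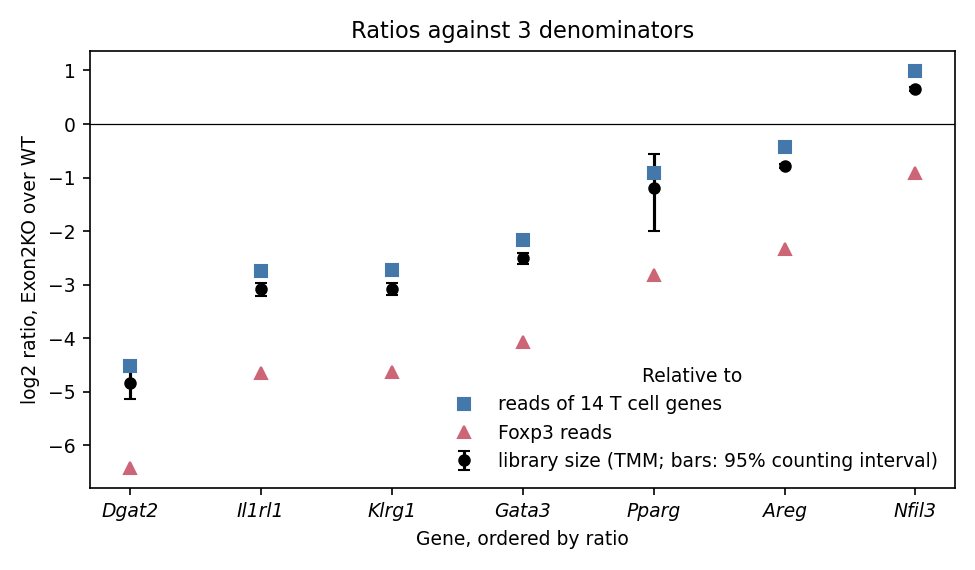
Log2 ratio of Exon2KO over WT for each gene relative to library size (black, with the 95% counting interval), to reads of 14 T cell genes (blue) and to Foxp3 reads (red). A denominator shifts all genes alike, so their order is fixed; Nfil3 goes from 0.65 per library to -0.91 per Foxp3 read.

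The partners of ST2 did not share its ratio. For this and the following lists, the shares over all genes are the 8.14% lower and 9.38% higher given above. Of 14 genes for IL-33, the accessory chain and the signalling chain, all with at least 10 reads, 0 were past 2-fold lower and 1 was higher, with a median of -0.026. Il1rap, the shared accessory chain, had 145 and 163 reads, and Il1rl1 minus Il1rap came to -3.23 (-3.58 to -2.89) on the log2 scale. The adapter gene Myd88 had 1408 and 1278 reads (-0.17). The gene past 2-fold was Irak3, an inhibitory member of the IRAK family, with 375 and 938 reads (1.29, 1.12 to 1.47). Il33 itself had 5 reads in each library. Il1rl1 lies in a cluster of receptor genes on chromosome 1, and the other genes there had ratios in both directions. The IL-18 receptor chains Il18r1 and Il18rap were at 0.05 (1872 and 1970 reads) and -1.10 (1461 and 693 reads), the IL-1 receptor Il1r1 was at 2.29 (164 and 824 reads) and the decoy receptor Il1r2 at 0.19 (4629 and 5381 reads). Il1rl1 minus Il18r1 came to -3.14 (-3.28 to -2.99).

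Type 2 genes and partners of GATA3 had ratios on both sides of 0. Of 16 listed, 14 had at least 10 reads, 1 was past 2-fold lower, 3 higher and 10 (71.4%) within, against 82.5% of all genes, with a median of -0.12. Ccr8, a chemokine receptor of tissue Treg cells and type 2 T cells, was the lower one, with 5168 and 378 reads (-3.79, -3.95 to -3.65), and Ccr8 minus Il1rl1 came to -0.71 (-0.90 to -0.52). Il17rb, the IL-25 receptor chain, was at -0.96 (122 and 63 reads) and the chemokine receptor gene Ccr4 at 0.57 (2124 and 3209). Il4ra was at -0.15 with 10111 and 9269 reads, and Stat6 at -0.40 with 1741 and 1344. The type 2 cytokine genes were sparse in both libraries: Il4 had 36 and 53 reads, Il5 39 and 23, Il13 1 and 9, and Il9 3 and 0. The other genes past 2-fold higher besides Il13 were Maf (2336 and 4853 reads, 1.03) and Gata2 (3 and 12 reads).

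Other genes of tissue Treg cells were split. Of 20, all with at least 10 reads, 9 were past 2-fold lower and 1 higher, with a median of -0.85. Ccr8 is also on this list. The other genes past 2-fold lower included Ikzf2, which encodes Helios (8476 and 440 reads, -4.29), the enkephalin precursor Penk (13737 and 803, -4.12), the inhibitory receptor Cd200r1 (1042 and 127, -3.04), the integrin gene Itgae (1926 and 312, -2.64) and the cytokine subunit Ebi3 (944 and 191, -2.32). Batf, a factor required by tissue Treg cells, had 7261 and 4159 reads (-0.83) and Rora 19059 and 10568 (-0.88). Values above 0 were found for Irf4 (0.86), Prdm1 (0.72), Cxcr6 (0.91) and Gzmb (0.52), all short of 2-fold, and Il10 was the gene past it (1.46). Genes of the RORgt type of colonic Treg cell, which share Il10 with this list, had a median of 1.23. Of 11, 8 were past 2-fold higher, 0 lower and 3 within, the last including Ctla4 (0.71) and Icos (0.43). The higher ones included the type 17 genes Il17a (190 and 12014 reads, 5.94), Il17f (34 and 1551, 5.40), Il22 (45 and 269, 2.50) and Il23r (326 and 1172, 1.81). Which cells gave these reads was not tested. The lists were chosen with earlier results of these data known, so their counts describe these libraries only.

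**Figure D4:**
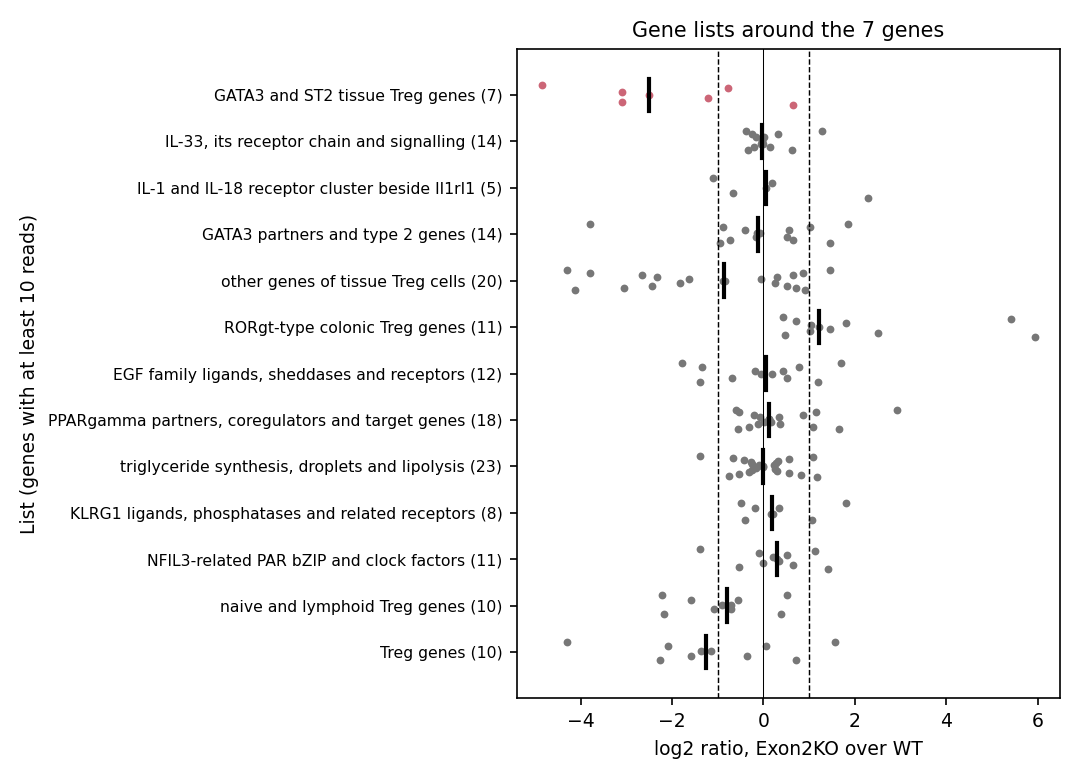
Log2 ratio of Exon2KO over WT for the genes of each list with at least 10 reads (1 point per gene, black bar at the list median, dashed lines at 2-fold; red, the 7 genes). The 7 genes had the lowest median of the lists drawn, -2.51, followed by the Treg genes at -1.26. The lists of signalling partners, lipid genes and EGF family genes centred near 0.

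Amphiregulin is made as a membrane precursor, cut free by the protease ADAM17 and bound by the EGF receptor. The sheddase Adam17 had 563 and 768 reads (0.42) and its partner Rhbdf2 107 and 124 (0.18). Of the 14 genes for EGF family ligands, sheddases and receptors, 12 had at least 10 reads, with 3 past 2-fold lower, 2 higher and a median of 0.07. Hbegf, a related ligand, had 199 reads in WT and 663 in Exon2KO (1.70, 1.48 to 1.95), opposite in direction to Areg, and Areg minus Hbegf came to -2.49 (-2.72 to -2.26). The 3 lower genes, the ligands Egf, Tgfa and Btc, had at most 16 reads in a library. Egfr had 7 and 6 reads.

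The lipid genes around Dgat2 and Pparg were counted in 2 lists. Of 27 genes for triglyceride synthesis, lipid droplets and lipolysis, 23 had at least 10 reads; 1 was past 2-fold lower, 2 higher and 20 (87.0%) within, near the 82.5% of all genes, with a median of -0.02. Dgat1, which encodes an unrelated enzyme for the same step as Dgat2, had 58974 and 59595 reads (-0.01, -0.03 to 0.0048), and Dgat2 minus Dgat1 came to -4.86 (-5.12 to -4.60). Of 22 partners and targets of PPARgamma, 18 had at least 10 reads, with 0 past 2-fold lower, 4 (22.2%) higher, against 9.38% of all genes, and a median of 0.12. The 4 were Plin2, Fabp4 (23 and 78 reads), Cd36 (1 and 21) and Angptl4 (6 and 16). The lipid droplet gene Plin2, a target of the receptor in other cells, had 1086 and 2332 reads (1.07, 0.97 to 1.18). The heterodimer partners Rxra (116 and 109 reads) and Rxrb (741 and 758) were at -0.11 and 0.01, and the fatty acid binding gene Fabp5 at -0.32 (1973 and 1606).

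The genes related to Klrg1 and Nfil3 were counted against the 82.5% of all genes that were within 2-fold. Of 12 KLRG1 ligands, phosphatases and related receptors, 8 had at least 10 reads, with 0 past 2-fold lower, 2 higher, 6 within and a median of 0.19. Inpp5d, which encodes the phosphatase SHIP-1, was at -0.41 (1708 and 1307 reads), and the ligand gene Cdh1 (E-cadherin) had 13 and 30 reads. Of 12 bZIP, clock and lymphoid factors tied to Nfil3, 11 had at least 10 reads, with 1 past 2-fold lower, 2 higher, 8 within and a median of 0.29. The higher genes were the PAR bZIP factor Hlf (456 and 1020 reads, 1.13, 0.97 to 1.3) and the clock repressor Nr1d1 (386 and 1054, 1.42, 1.25 to 1.59). Nr1d2 (1515 and 2435 reads, 0.66, 0.56 to 0.75) was at the ratio of Nfil3 within counting error, and Arntl was at 0.51 (1304 and 1897 reads, 0.41 to 0.62). Tox was lower (3005 and 1166 reads, -1.39), while Id2 (45988 and 57384) was at 0.29 and Bhlhe40 (23502 and 23831) at -0.01.

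Within 200 kb of the start sites of the 7 genes lay 27 other loci with at least 10 reads, of which 7 were past 2-fold lower and 3 higher (8.14% and 9.38% over all genes), with a median of -0.18. Some of these 10 had few reads, such as C630004M23Rik with 15 and 6. The 4 neighbours of Dgat2 ranged from -0.46 to -0.18. Beside Il1rl1, 2 of 5 were past 2-fold lower, Il18rap and an unnamed locus upstream of it (215 and 73 reads, -1.56), and the median was -0.66. Beside Gata3, 2 of 6 were past 2-fold lower, 9230102O04Rik (24 and 1 reads, -3.13) and C630004M23Rik (-1.11), and 1 higher, Gm13262 (3 and 12 reads, 1.47). Taf3 (690 and 744 reads), Atp5c1 (4449 and 4628) and Kin (696 and 590) were at 0.08, 0.03 and -0.26. Beside Klrg1, 2 of 5 were past 2-fold lower. Phc1 (175 and 180 reads) was at 0.01 and Gm8430 (189 and 183) at -0.07, while Gm6637 was at -1.62 (1573 and 521 reads), M6pr was at -0.65 (3951 and 2563) and an unnamed locus 24.5 kb downstream had 63 reads in WT and 0 in Exon2KO, with an upper limit of -4.08 for the log2 ratio. Beside Nfil3, 2 of 3 were past 2-fold higher, both unnamed loci downstream. The locus at 23.9 kb had 231 and 603 reads (1.35), and the locus at 23.8 kb, on the other strand, had 29 and 72 (1.23). Auh was at 0.15 (1382 and 1559).

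**Figure D5:**
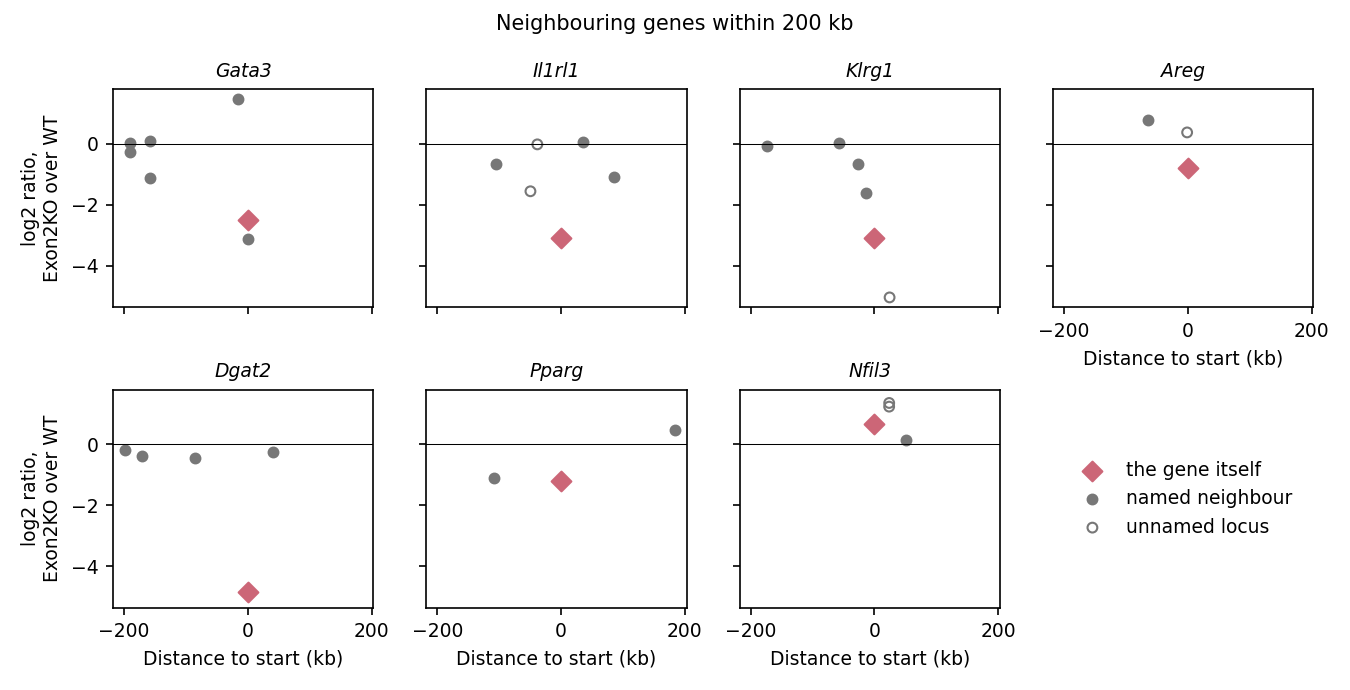
Log2 ratio of Exon2KO over WT for each of the 7 genes (red diamond) and for the loci within 200 kb with at least 10 reads, against distance from the start site of the gene in kb, positive downstream (filled, named genes; open, unnamed loci). The 4 neighbours of Dgat2 lie between -0.46 and -0.18, while Dgat2 is at -4.85.

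Of the genes with a WT level within 2-fold and at least 500 reads, those with the nearest ratios were Gramd3 (-2.42) and Dusp14 (-2.67) for Gata3, Ccl5 (-2.95) and Nr4a2 (-3.23) for Il1rl1, and Cd83 (-3.33) and Pdcd1 (-2.80) for Klrg1. They were Acod1 (-5.18) and Tmem158 (-4.41) for Dgat2, Cd2 (-0.77) and Hspa8 (-0.72) for Areg, and Pag1 (-1.01) and Kif13b (-0.94) for Pparg. For Nfil3 they were the mitochondrial genes mt-Nd5 (0.65) and mt-Nd6 (0.81). The likeness is the distance between log2 ratios, from 0.0042 to 0.44 over these pairs, and it rests on 2 libraries.

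Several of the 7 genes are also expressed by other cells, so the markers of those cells were read in both libraries; their part in the differences was not tested. Group 2 innate lymphoid cells carry Gata3, Il1rl1, Klrg1 and Areg. Of 10 of their genes, 9 had at least 10 reads, 3 of them past 2-fold lower, 1 higher (Il13, 1 and 9 reads), with a median of -0.74. The sum was 3491 reads in WT and 3468 in Exon2KO, of which Calca gave 2568 and 3138; the other 9 genes summed to 923 and 330. Bmp7 (338 and 17 reads), Il9r (132 and 17) and Kit (149 and 53) were the genes past 2-fold lower, Nmur1 had 119 and 126, and Ptgdr2 had 0 reads in both. For mast cells, 7 of 12 genes, including Fcer1a, Ms4a2 and Mcpt1, had 0 reads in both libraries, and the sum was 434 and 279. CD8 and NK genes, relevant to Klrg1, summed to 5591 and 390 reads, of which Gzma gave 5153 and 164. Of 10, 8 had at least 10 reads, with 4 past 2-fold lower, 1 higher and a median of -1.13. Xcl1 had 84 and 7 reads, Prf1 87 and 27, Cd8a 23 and 6, Klra8 0 in both and Ncr1 0 and 10.

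Epithelial genes went the other way, with 10 of 13 past 2-fold higher and a sum of 1480 reads in WT and 7517 in Exon2KO. The adipocyte markers Adipoq (1 read in each library) and Plin1 (0 in both) were near or at 0, and the list of 7 summed to 26 and 81 reads. Macrophage and dendritic genes summed to 1250 and 994 reads over 11 genes, with Itgax at 0 in both; without Zbtb46 (548 and 140) the other 10 summed to 702 and 854. Stromal genes summed to 1194 and 1132 over 10 genes. B and plasma cell genes, with 10 members, summed to 985317 and 853124, above the 142850 and 114269 of the 14 T cell genes. Of the 10, 3 were past 2-fold lower and 1 higher, with a median of -0.35. Igkc gave 447269 and 400030 of these reads and Igha 408840 and 334179. Which cells they came from was not tested. Of the 14 T cell identity genes, 11 were below 0 and 3 above, with a median of -0.28, and 1, Cd5 (-1.05), was past 2-fold lower. Cd2 was at -0.77, Trac at -0.44 and Lck at -0.38, while Cd3e was at 0.0032 and Cd4 at 0.20. Of 10 Treg genes 6 were past 2-fold lower, 3 within and 1, Foxp3, higher (1.56, 1.52 to 1.60), with a median of -1.26. The lower ones were Ikzf2, Lrrc32 (-2.27), Ikzf4 (-2.09), Tnfrsf18 (-1.59), Tnfrsf4 (-1.37) and Izumo1r (-1.15).

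The WT library held 16281133 reads in genes and the Exon2KO library 15412425, and 3 reads, the limit that a count of 0 allows, correspond to 0.191 and 0.188 CPM (reads relative to the scaled library size). In the authors' deposited table, whose tool is not named there, the adjusted p-value was 1.09e-06 for Gata3, 1.37e-09 for Il1rl1, 1.40e-09 for Klrg1, 7.29e-20 for Dgat2, 0.418 for Areg, 0.227 for Pparg and 0.605 for Nfil3. These rest on the same libraries, 1 against 1, so no spread between samples of a genotype was measured for them either. An exact test on these libraries needs a spread set by hand, and that choice decides how many genes it calls. When the biological coefficient of variation (BCV), meaning how far samples of a group vary relative to their mean, was set to 0.2, edgeR's exact test called 4 of the 7 genes lower, against 3.09% of all genes; at a BCV of 0.4 it called 1, Dgat2 (adjusted p-value 0.00038), against 0.449%. A fold threshold of 1.5 gave 6 lower, against 15.2% of all genes, and a threshold of 4 gave 4, against 2.35%.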

How the data were processed

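Gene-level RNA sequencing reads of 1 WT and 1 Exon2KO library were used. Raw counts per gene, FPKM values, a scaled count signal, a log2 fold change and p-values were deposited by the authors in 1 table, per the file headers. The submitters' processing notes name HISAT2 2.0.5, StringTie 1.3.3b, featureCounts 1.5.0-p3, DESeq2 1.16.1 and build mm10, with no role for each; the annotation release and the use of strand are not given in the sources used here. Coordinates of all 7 genes equal those of GENCODE M21 (GRCm38).

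Counts were scaled with TMM (edgeR 4.0.16 in R 4.3.3; factors 0.964 for WT and 1.04 for Exon2KO). Log2 ratios used a prior count of 2 and 95% Clopper-Pearson intervals of each gene's share, computed without the prior count. RPKM used the deposited gene length and Poisson intervals. Differences between 2 genes are log odds ratios with Woolf intervals. Reads are not independent molecules, so all intervals cover counting error only. The quasi-likelihood test of edgeR needs replicates and was not run. A simpler form of the ratio, with TMM factors and 2 reads added to each count, was tested on simulated data with known fold changes. The simulated counts had Poisson error only, so that test does not cover the spread between samples. Python 3.11.15, scipy 1.17.1 and pandas 2.3.3 were used.

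The 7 genes, the gene lists and the tests were chosen with earlier results of these data known. All 7 genes are named, with some list members, the 2 genes of nearest ratio for each and some neighbours within 200 kb. Alternatives in scaling, prior count, read minimum, fold threshold and assumed spread were recomputed.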

Additional observations from a re-analysis of the deposited data

How the results depend on the processing

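All 7 log2 ratios kept their direction under DESeq2 size factors (DESeq2 1.42.0), upper-quartile factors, total counts, scaling to the T cell identity genes, and prior counts of 0.5 and 5. Total counts raised the median ratio of all genes by 0.105 and scaling to T cell genes by 0.345, and 60.2% and 72.8% of the genes past 2-fold were then higher, against 53.5% with TMM. Under the T cell scaling Pparg, at -0.87, was no longer past 2-fold, Nfil3 was just short of it at 1.00, and 4 genes instead of 5 were past 2-fold lower. A minimum of 100 reads also left 4, since Pparg has fewer. Setting the BCV to 0.4 in edgeR's exact test gave adjusted p-values of 0.2 for Gata3 (-2.51), 0.0585 for Il1rl1 (-3.09), 0.0587 for Klrg1 (-3.08) and 1 for Pparg (-1.20), leaving 1 gene called lower; with 0.2 Pparg had 0.190. The cause is the assumed spread itself, which 1 library per group cannot measure. A fold threshold of 1.5 gave 1 gene of 7 higher, Nfil3, against 16.8% of all genes. Of 149 distinct genes with at least 10 reads in the 12 lists other than the 7 genes and the cell markers (all lists of Treg genes included), those past 2-fold numbered 24 lower and 24 higher with TMM, 22 and 25 under total counts, and 21 and 33 under T cell scaling, added after the data were seen, where the shares of all genes past 2-fold were 5.51% lower and 14.7% higher against 8.14% and 9.38%. Depth limits Pparg and the type 2 cytokine genes. No paired analysis was possible because each genotype has 1 library, and no library could be left out.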

Other observations

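Dgat1 was far more abundant than Dgat2 in both libraries. Its level was 1230 RPKM in WT and 1220 in Exon2KO, rank 32 and 25 of 12853 protein-coding genes with at least 10 reads, near the level of Areg in WT. No other annotated locus of the table overlaps it. Its rank was looked at after its count had been seen.

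Genes of naive and lymphoid Treg cells were also lower on balance in the Exon2KO library, with 4 of 10 past 2-fold lower, 0 higher and a median of -0.81. The Wnt-pathway factor Lef1 (498 and 108 reads, -2.21), the egress receptor S1pr1 (1364 and 462, -1.58) and Klf2 (2157 and 1036, -1.08) were among them. Il7r (3321 and 4442 reads, 0.39) and Bach2 (173 and 253, 0.52) were above 0.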
